A study of Mus musculus with 8 samples.

Results

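Mitosis genes encode the kinases, chromosome proteins, spindle motors and checkpoint proteins with which a cell condenses, aligns and separates its chromosomes and then divides. A list of 48 such genes was followed in the thymus of mice after spaceflight, and 47 of them were measured among the 19938 genes with a probe set of a single gene. Each gene was represented by its single-gene probe set of highest mean over the 8 arrays, and no filter on low values was used. No single-gene probe set was annotated to Ccnb1, the B-type cyclin of mitotic entry, so it was not analysed here. The spaceflight group was 4 C57BL/6NTac mice, 8 weeks old, that spent 13 days aboard a space shuttle. The ground-control group was 4 mice of the same strain, age and sex housed on the ground in matching animal enclosure modules. Total RNA of thymus was measured on 1 Affymetrix array per mouse, and in such bulk tissue fewer cells of a type and less RNA per cell cannot be told apart.

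Cells enter mitosis when Cdk1, bound to cyclins A and B, is switched on by Cdc25 phosphatases, and they leave it when the anaphase-promoting complex, with its activator Cdc20, marks cyclin B and securin for destruction. Between these steps condensins compact the chromosomes, kinetochores attach them to spindle microtubules, and the spindle checkpoint holds anaphase back until every kinetochore is attached. Most of these genes are transcribed late in the cell cycle under the MuvB complex with B-Myb and then FoxM1, which act through a promoter element called the cell cycle genes homology region (CHR), often with CCAAT boxes bound by NF-Y nearby. In the thymus the dividing cells are chiefly thymocytes passing from the stage without CD4 and CD8 to the stage with both, while most later thymocytes are resting.

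All values are deposited log2 expression values, on which a difference of 1 is a factor of 2, and every difference is spaceflight minus ground control. The array medians lay between 6.01 and 6.10. Spaceflight mice 1 and 3 had interquartile ranges of 2.43 and 2.43, against 2.84 and 2.82 in spaceflight mice 2 and 4 and 2.68 to 2.95 in ground-control mice. The 9 measured markers of thymocytes with both CD4 and CD8 lay between 7.27 and 12.64 over the 8 arrays, all above the array medians. Each difference was tested with limma over all 28943 probe sets with Benjamini-Hochberg adjustment, and a gene was called at an adjusted p under 0.05. That rule called 10 of the 19938 genes (0.0502%), 2 higher (0.01%) and 8 lower (0.0401%).

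A shared feature that the choice of genes did not use is the promoter sequence, and 4 promoters are printed because their genes are among those described in most detail below. RefSeq promoter windows of 300 bases (250 before and 50 after a start, GRCm38.p6) were found for 39 of the 48 genes, in 42 windows. Capitals mark each CHR (TTTGAA or its reverse complement) and each CCAAT box (CCAAT or its reverse complement, ATTGG), and the sequences run 5′ to 3′ on the gene's strand.
Ccnb2 (chr9:70421505-70421804, minus strand): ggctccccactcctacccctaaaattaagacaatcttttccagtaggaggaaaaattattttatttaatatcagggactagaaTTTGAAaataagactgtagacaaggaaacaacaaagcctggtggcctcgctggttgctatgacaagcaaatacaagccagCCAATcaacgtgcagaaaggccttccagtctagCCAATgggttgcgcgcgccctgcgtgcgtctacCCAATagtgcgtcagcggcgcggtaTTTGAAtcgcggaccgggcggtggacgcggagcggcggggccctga
Cenpa (chr5:30666636-30666935, plus strand): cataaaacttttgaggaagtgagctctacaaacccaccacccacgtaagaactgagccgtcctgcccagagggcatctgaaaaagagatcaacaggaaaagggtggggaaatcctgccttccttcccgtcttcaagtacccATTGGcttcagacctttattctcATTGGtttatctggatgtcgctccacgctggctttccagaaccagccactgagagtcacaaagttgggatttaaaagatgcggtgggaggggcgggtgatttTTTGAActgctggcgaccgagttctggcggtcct
Mki67 (chr7:135716330-135716629, minus strand): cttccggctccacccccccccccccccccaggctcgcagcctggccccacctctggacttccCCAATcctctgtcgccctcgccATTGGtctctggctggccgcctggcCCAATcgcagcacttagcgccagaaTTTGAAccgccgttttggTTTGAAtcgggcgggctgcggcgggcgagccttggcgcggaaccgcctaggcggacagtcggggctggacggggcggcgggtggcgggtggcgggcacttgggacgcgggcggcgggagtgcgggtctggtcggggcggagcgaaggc
Cdk1 (chr10:69352863-69353162, minus strand): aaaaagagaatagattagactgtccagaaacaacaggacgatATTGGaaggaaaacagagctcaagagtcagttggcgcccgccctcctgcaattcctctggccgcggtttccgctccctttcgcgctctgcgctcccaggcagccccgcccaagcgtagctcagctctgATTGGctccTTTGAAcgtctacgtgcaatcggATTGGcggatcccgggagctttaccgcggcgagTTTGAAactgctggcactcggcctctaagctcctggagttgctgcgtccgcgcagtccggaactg

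Positions below give a match's leftmost base relative to the start, negative before it. In Ccnb2, 3 CCAAT boxes stood at -87, -54 and -21, and CHR matches stood at -167 and 5. Cenpa had 2 reversed CCAAT boxes, at -109 and -86, and a CHR at 17. Mki67 and Cdk1 each held 2 CHR matches, at -116 and -98 in Mki67 and at -71 and -15 in Cdk1. Of the 42 windows, 31 (73.8%) held a CHR on either strand, against 17.9% of all 32851 promoter windows and 14.8% of the 19177 windows of genes measured here. A CCAAT box stood in 31 of the 42 windows (73.8%), against 37.4% of all windows, and both elements stood together in 27 (64.3%), against 6.95% of all windows. Every printed window held both, which other genes given in full below did not all do. Windows of Cdc25b, Nek2 and Cenpe held no CHR, and those of Ndc80 and Kif2c no CCAAT box. For comparison, windows of the S phase genes described below held a CHR in 2 of 18 cases (11.1%) and a CCAAT box in 12 of 18 (66.7%). The 2 motifs share no bases with each other in the printed windows, and a match is a stretch of letters and not a measured binding site.

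No mitosis gene was called in spaceflight against ground control, where 0.0502% of all genes were called. By limma, 3 of the 47 mitosis genes were at an unadjusted p under 0.05, all of them higher, against 3.05% of all genes, and none was at that level and lower, against 7% of all genes. Means were higher in spaceflight for 37 of the 47 genes and lower for 10, where 46.5% of all genes had a higher mean and 53.5% a lower one. The median difference over the 47 genes was 0.14, against -0.018 over all genes. Among the 8112 genes whose mean level fell in the same range as the mitosis genes (6.62 to 10.50), the median was -0.13 and 77.9% had a lower mean. Single mice moved these counts and the median: without spaceflight mouse 1 or 2 the median was 0.062 or 0.029, with 15 or 20 lower means, and without mouse 3 or 4 it was 0.25 or 0.25, with 5 or 4 lower means. Without both mice 1 and 3 it was 0.19, with 9 lower means. The number at an unadjusted p under 0.05 and higher ran from 1 to 11 when single mice were left out, with 1 without spaceflight mouse 1 or 2 and 11 without mouse 3. The 95% interval of the difference included 0 for 44 genes and stayed within a factor of 2 in either direction for all 47, with bounds between -0.47 and 0.90.

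The spaceflight mice did not behave as 1 group for these genes, and the heat map of deviations shows this most directly. Relative to the ground-control mean, the median over the 47 genes was 0.39, 0.49, -0.18 and -0.12 in spaceflight mice 1 to 4, against 0.15, -0.062, -0.15 and 0.033 in ground-control mice 1 to 4. Spaceflight mice 1 and 2 were thus the highest of all 8, while spaceflight mouse 3 lay below all ground-control mice and mouse 4 within their range. The same median over all genes was no lower than -0.06 in any mouse. Over genes in the level range of the mitosis genes it was -0.24, 0.0086, -0.26 and -0.011 in spaceflight mice 1 to 4. A low value in mouse 3 was thus not particular to mitosis genes.

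**Figure D1:**
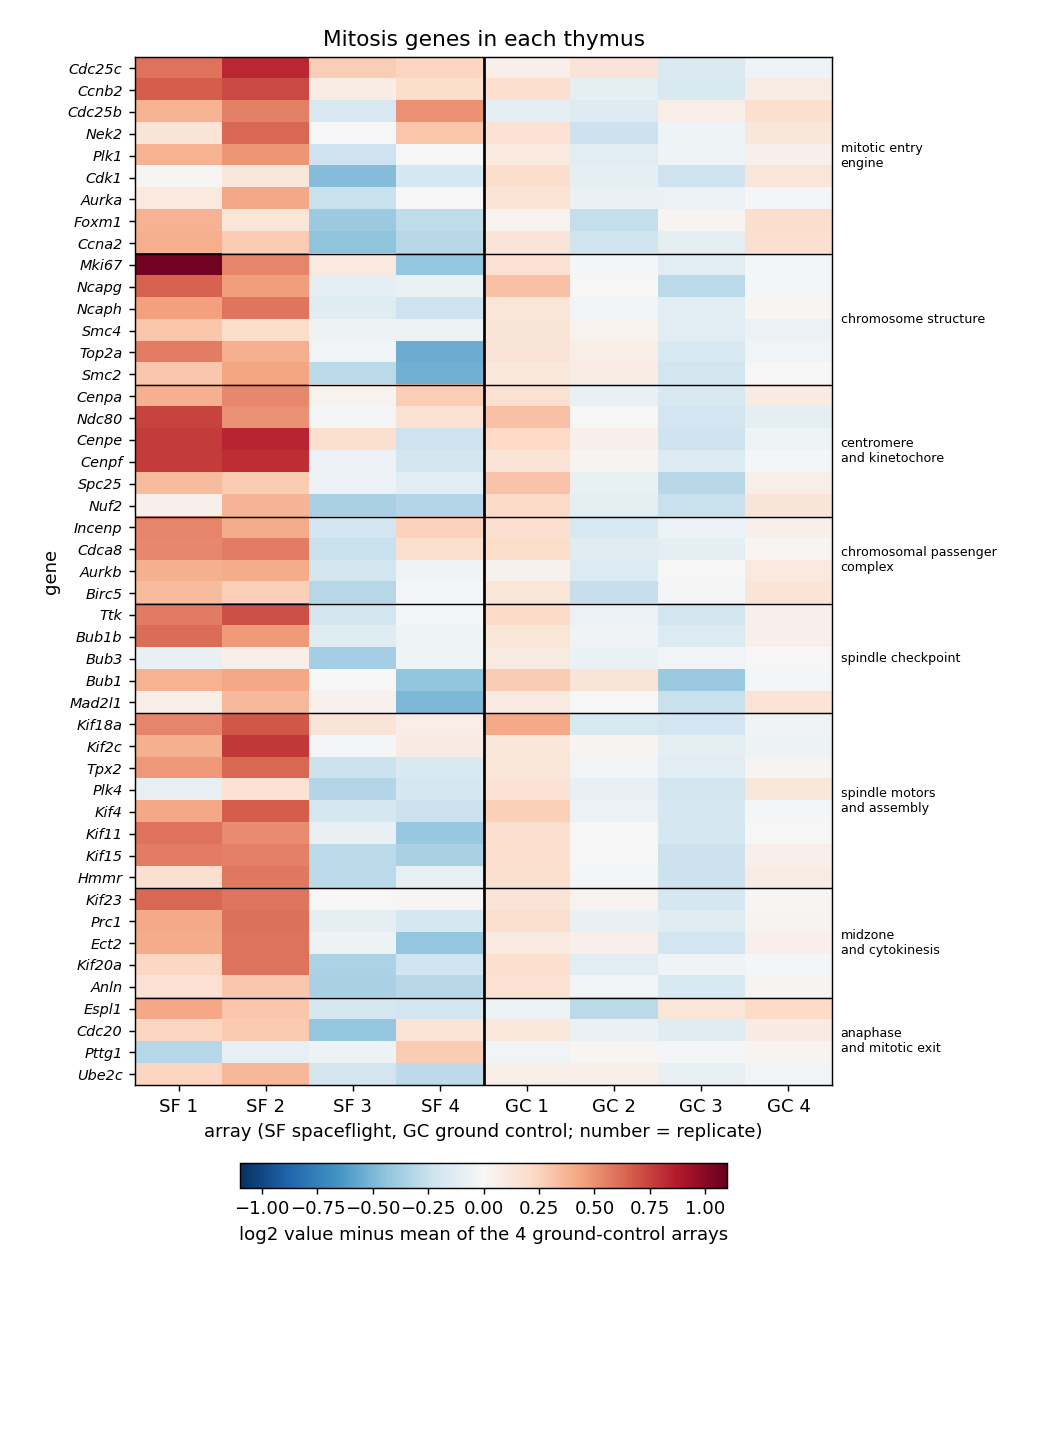
Each row is a mitosis gene, grouped by role, and each column an array; colour gives the log2 value minus the mean of the 4 ground-control arrays. Spaceflight mice 1 and 2 are red in most rows, with medians of 0.39 and 0.49, and spaceflight mice 3 and 4 are pale or blue, with medians of -0.18 and -0.12.

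Genes that switch on mitotic entry held the members with the smallest p. Cdc25c, a phosphatase that activates Cdk1, had log2 values of 6.97, 7.21, 6.65 and 6.62 in spaceflight mice 1 to 4 and of 6.44, 6.52, 6.22 and 6.33 in ground-control mice 1 to 4. All 4 spaceflight values were above all 4 ground-control values, the single such case among the 47 genes, where 1.73% of all genes separated this way. The difference was 0.48 ± 0.15 (SE, n = 4 each; limma adjusted p = 0.404). Ccnb2, a B-type cyclin that binds Cdk1, had 10.32, 10.37, 9.73 and 9.84 in spaceflight mice 1 to 4, against 9.83, 9.55, 9.48 and 9.72 in ground-control mice 1 to 4. The top values were those of spaceflight mice 1 and 2, mouse 4 was just above the highest control and mouse 3 lay inside the control range, which gave a difference of 0.42 ± 0.16 (limma adjusted p = 0.462). Cdc25b, the phosphatase that starts Cdk1 activation, had log2 values of 8.40, 8.57, 7.84 and 8.52 in spaceflight mice 1 to 4 and of 7.90, 7.87, 8.09 and 8.19 in ground-control mice 1 to 4. Here spaceflight mouse 3 was the lowest of all 8 and the other 3 spaceflight mice were above every control, with a difference of 0.32 (limma adjusted p = 0.51).

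Cdk1 itself, the kinase that drives mitosis, had 8.41, 8.53, 7.92 and 8.20 in spaceflight mice 1 to 4, against 8.59, 8.30, 8.17 and 8.54 in ground-control mice 1 to 4. Ground-control mouse 1 was highest and spaceflight mouse 3 lowest, the groups overlapped, and the difference was -0.13, with a 95% interval from -0.47 to 0.21. Nek2, a kinase that separates the centrosomes, had log2 values of 7.92, 8.41, 7.78 and 8.09 in spaceflight mice 1 to 4 and of 7.94, 7.55, 7.73 and 7.90 in ground-control mice 1 to 4. Spaceflight mice 2 and 4 were above every control and mice 1 and 3 inside the control range, with a difference of 0.27 (limma adjusted p = 0.52). Plk1, a kinase that acts from entry to cytokinesis, had 9.07, 9.17, 8.45 and 8.68 in spaceflight mice 1 to 4, against 8.79, 8.56, 8.63 and 8.74 in ground-control mice 1 to 4. The control range lay below spaceflight mice 1 and 2, with mouse 4 inside it and mouse 3 below it, and the difference was 0.16 (interval -0.19 to 0.51). Foxm1, the transcription factor of late cell cycle genes, had log2 values of 8.03, 7.78, 7.24 and 7.37 in spaceflight mice 1 to 4 and of 7.69, 7.38, 7.68 and 7.84 in ground-control mice 1 to 4. Spaceflight mouse 1 was above all controls, mouse 2 among them, and mice 3 and 4 below all. Its difference of -0.044 changed sign when arrays were rescaled, to 0.035 after centring on 75th percentiles. The cyclin Ccna2, which works in S phase and at entry, differed by -0.019, and Aurka, the centrosomal Aurora kinase, by 0.074. None of the 9 measured genes of this role was called, and 6 had a higher and 3 a lower mean. Their median difference of 0.16 ran from 0.051 (without spaceflight mouse 2) to 0.29 (without spaceflight mouse 3) with single mice left out.

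Genes of chromosome structure had the largest median SD between spaceflight mice of the 8 roles, 0.44, against 0.13 between ground-control mice. Mki67, which coats mitotic chromosomes and is the usual marker of dividing cells, had 10.85, 10.33, 9.90 and 9.37 in spaceflight mice 1 to 4, against 9.95, 9.77, 9.66 and 9.77 in ground-control mice 1 to 4. The spaceflight range of 1.48 was the largest of the 47 genes and the control range was 0.29, with spaceflight mice 1 and 2 above the controls, mouse 3 among them and mouse 4 below. The difference was 0.32 ± 0.26 (interval -0.25 to 0.90; limma adjusted p = 0.621), and it was 0.075 without spaceflight mouse 1, 0.57 without mouse 4 and 0.057 without mice 1 and 3. Top2a, the topoisomerase that untangles sister chromatids, had log2 values of 10.93, 10.76, 10.33 and 9.82 in spaceflight mice 1 to 4 and of 10.50, 10.43, 10.18 and 10.33 in ground-control mice 1 to 4. The order of the spaceflight mice was that of Mki67, and the difference of 0.10 turned to -0.073 without spaceflight mice 1 and 3. A second probe set of Top2a, at 2.54 to 3.02 on all arrays, differed by 0.18. The condensin genes differed by 0.23 (Ncapg), 0.17 (Ncaph), 0.10 (Smc4) and -0.023 (Smc2). In each of the 6 genes spaceflight mice 1 and 2 were both above every ground-control mouse, and no gene was called. The median difference of the 6 was 0.14, 0.066 without mice 1 and 3, and from 0.048 (without spaceflight mouse 2) to 0.31 (without spaceflight mouse 4) with single mice left out.

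Centromere and kinetochore genes had the highest median difference of the 8 roles, 0.32, and from 0.20 (without spaceflight mouse 1) to 0.43 (without spaceflight mouse 3) with single mice left out. Cenpa, the histone H3 variant that marks centromeres, had 9.14, 9.28, 8.79 and 9.03 in spaceflight mice 1 to 4, against 8.92, 8.67, 8.57 and 8.84 in ground-control mice 1 to 4. All but spaceflight mouse 3 were above every control, and the difference was 0.31 ± 0.13 (limma adjusted p = 0.485). Ndc80, a microtubule-binding subunit of the outer kinetochore, had log2 values of 8.18, 7.93, 7.42 and 7.60 in spaceflight mice 1 to 4 and of 7.76, 7.43, 7.23 and 7.33 in ground-control mice 1 to 4. Cenpe, the kinetochore motor that brings chromosomes to the spindle equator, had 8.54, 8.61, 7.94 and 7.54 in spaceflight mice 1 to 4, against 7.98, 7.82, 7.54 and 7.72 in ground-control mice 1 to 4. In both genes spaceflight mice 1 and 2 were above all controls and mice 3 and 4 were inside the control range, with differences of 0.35 for Ndc80 and 0.39 for Cenpe (limma adjusted p = 0.508 and 0.521). Cenpf, a large kinetochore protein, differed by 0.33 with a spaceflight range of 1.02. The Ndc80 complex partners differed by 0.11 (Spc25) and -0.062 (Nuf2). In this role 5 of the 6 genes had a higher mean and 0 were called. Spc25 was the single gene of the 47 whose SD was not larger among spaceflight mice.

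All 4 genes of the chromosomal passenger complex, which corrects faulty attachments and later guides cytokinesis, had higher means. Incenp, its scaffold, had log2 values of 8.42, 8.29, 7.68 and 8.14 in spaceflight mice 1 to 4 and of 8.07, 7.71, 7.82 and 7.94 in ground-control mice 1 to 4. Aurkb, its kinase, had 8.68, 8.70, 8.09 and 8.24 in spaceflight mice 1 to 4, against 8.33, 8.13, 8.29 and 8.39 in ground-control mice 1 to 4. Birc5 (survivin), which targets the complex to centromeres, had log2 values of 7.82, 7.74, 7.15 and 7.45 in spaceflight mice 1 to 4 and of 7.60, 7.21, 7.45 and 7.61 in ground-control mice 1 to 4. In all 3, spaceflight mice 1 and 2 were above every control and mouse 3 was below every control. In Incenp, mouse 4 was also above every control. The differences were 0.25 for Incenp, 0.14 for Aurkb, 0.067 for Birc5 and 0.26 for Cdca8 (borealin), which joins survivin to the scaffold. Adjusted p ran from 0.557 to 0.876 by limma, and the median of 0.19 ran from 0.10 (without spaceflight mouse 2) to 0.33 (without spaceflight mouse 3) with single mice left out. The Birc5 difference changed sign when single arrays were left out.

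Spindle checkpoint genes were mixed, with 3 higher and 2 lower means and a median difference of 0.089 that changed sign with single mice left out, from -0.045 (without ground-control mouse 3) to 0.27 (without spaceflight mouse 4). Ttk, the Mps1 kinase that starts checkpoint signalling, had 7.30, 7.43, 6.53 and 6.71 in spaceflight mice 1 to 4, against 6.94, 6.66, 6.52 and 6.78 in ground-control mice 1 to 4, and mice 1 and 2 again stood above all controls. Its difference was 0.27 (interval -0.18 to 0.71; limma adjusted p = 0.601). Bub1b (BubR1), part of the complex that inhibits Cdc20, differed by 0.22, and its kinase relative Bub1 by 0.089. Bub3, which holds both at the kinetochore, differed by -0.11, and Mad2l1 (Mad2), the inhibitor of Cdc20, by -0.0061. Spaceflight mouse 4 was the lowest of all 8 for Bub1 and Mad2l1, and spaceflight mouse 3 for Bub3.

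Spindle motors and assembly factors had a median difference of 0.16, and 7 of 8 had a higher mean. With single mice left out that median ran from 0.011 (without spaceflight mouse 2) to 0.29 (without spaceflight mouse 4). Kif18a, a kinesin that damps chromosome movement, had log2 values of 7.61, 7.76, 7.22 and 7.15 in spaceflight mice 1 to 4 and of 7.50, 6.90, 6.86 and 7.04 in ground-control mice 1 to 4. Again spaceflight mice 1 and 2 were above every control, with mice 3 and 4 below ground-control mouse 1, with a difference of 0.36 (limma adjusted p = 0.504). Kif2c (MCAK), which disassembles microtubules at centromeres, had 8.51, 8.90, 8.10 and 8.21 in spaceflight mice 1 to 4, against 8.25, 8.15, 8.02 and 8.06 in ground-control mice 1 to 4. Mice 2 and 1 were again highest, with mice 3 and 4 inside the control range, and the difference was 0.31 (limma adjusted p = 0.51). For Tpx2, which activates Aurora A on the spindle, it was 0.18, for the chromosome arm motor Kif4 0.16, and for the bipolar spindle motors Kif11 (Eg5) and Kif15 0.15 and 0.12. Hmmr, a spindle pole protein, differed by 0.093, and Plk4, the kinase that duplicates centrioles, by -0.11. In all 8 genes spaceflight mice 1 and 2 were the 2 highest of the spaceflight mice.

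In all 5 genes of the midzone and of cytokinesis spaceflight mice 1 and 2 were the upper pair of the spaceflight mice. The median difference was 0.13, and with single mice left out it ran from -0.022 (without spaceflight mouse 2) to 0.31 (without spaceflight mouse 4), a change of sign. Kif23, the motor subunit of centralspindlin, had log2 values of 9.37, 9.33, 8.74 and 8.75 in spaceflight mice 1 to 4 and of 8.88, 8.78, 8.55 and 8.75 in ground-control mice 1 to 4. Mice 1 and 2 were above every control and mice 3 and 4 were inside the control range, which gave a difference of 0.31 (limma adjusted p = 0.514). The midzone bundler Prc1 differed by 0.18, the RhoA activator Ect2 by 0.13, the midzone kinesin Kif20a by 0.065 and the contractile ring scaffold Anln by -0.048. In each of the 5 genes the SD among spaceflight mice was at least 2 times that among ground-control mice. This held for 35.2% of all genes and for 3708 of the 8112 genes in the level range of the mitosis genes.

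Anaphase and mitotic exit genes had the median difference closest to 0 of the 8 roles, 0.044, and its sign turned with single mice left out, from -0.022 (without spaceflight mouse 2) to 0.14 (without spaceflight mouse 3). Espl1 (separase), which cuts the cohesin between sisters, had 7.39, 7.27, 6.77 and 6.75 in spaceflight mice 1 to 4, against 6.91, 6.67, 7.10 and 7.18 in ground-control mice 1 to 4. Cdc20, the activator of the anaphase-promoting complex, had log2 values of 7.68, 7.74, 7.02 and 7.60 in spaceflight mice 1 to 4 and of 7.56, 7.38, 7.32 and 7.54 in ground-control mice 1 to 4. In both, spaceflight mice 1 and 2 were above every control, in Cdc20 also mouse 4, and the groups overlapped. The differences of 0.082 and 0.060 changed sign when single arrays were left out. Ube2c, the ubiquitin-conjugating enzyme of that complex, differed by 0.027. Pttg1 (securin), the inhibitor of separase, had 7.05, 7.27, 7.31 and 7.64 in spaceflight mice 1 to 4, against 7.33, 7.38, 7.34 and 7.39 in ground-control mice 1 to 4, and its difference was -0.044 (0.096 without spaceflight mice 1 and 3). It was the single gene of the 47 with spaceflight mouse 1 lowest and spaceflight mouse 4 highest of all 8 mice, and its ground-control range of 0.061 was the narrowest of the list.

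**Figure D2:**
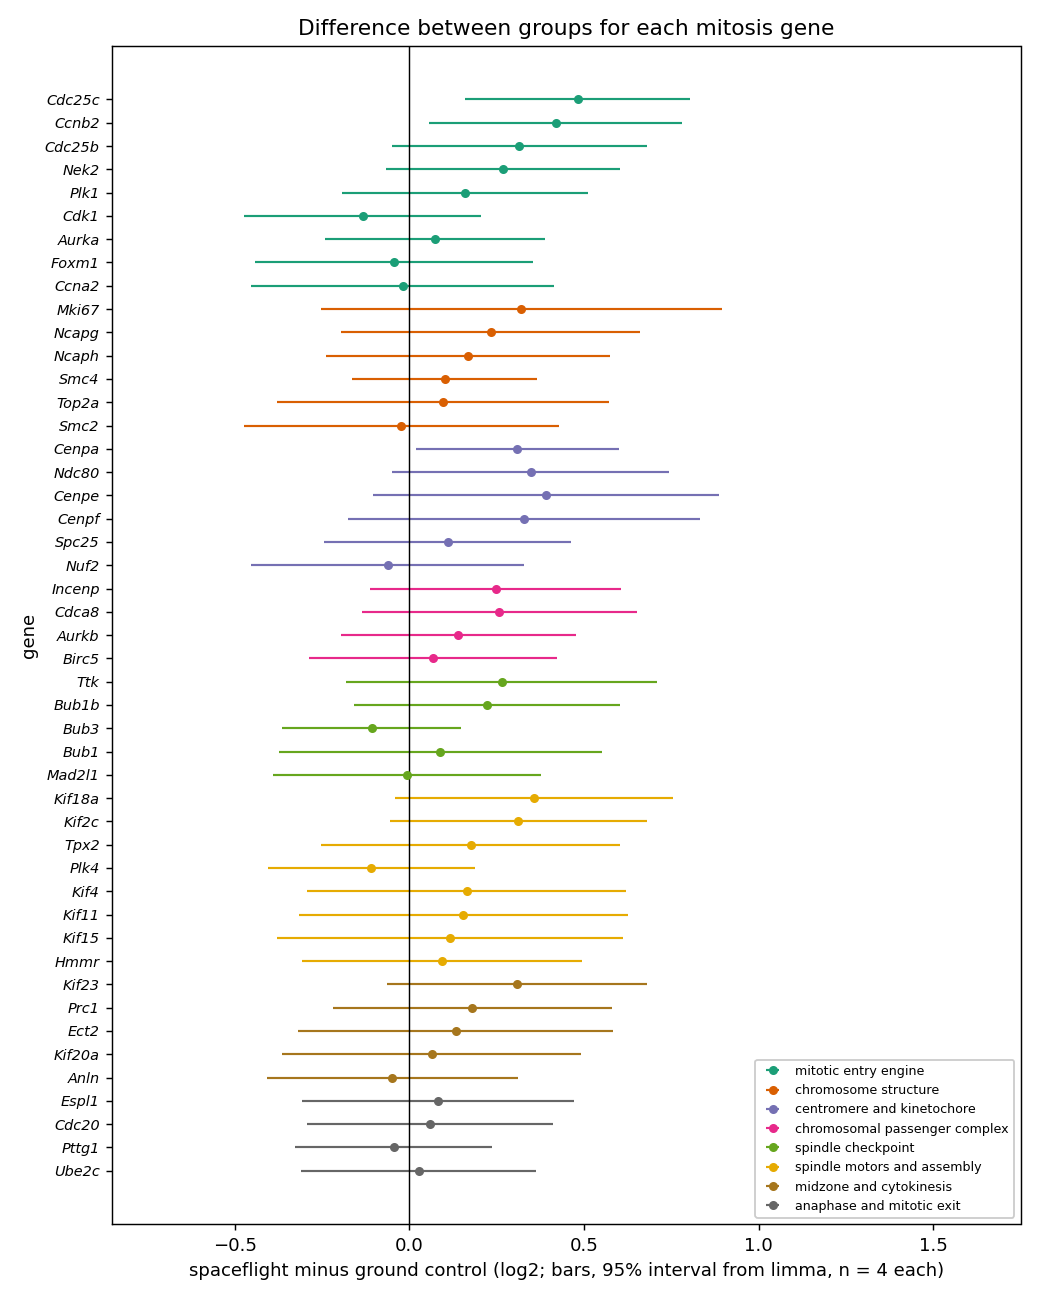
Points give the difference (log2, spaceflight minus ground control) of each of the 47 genes and bars its 95% interval from limma, coloured by role. Intervals of Cdc25c, Ccnb2 and Cenpa lie above 0, and those of the other 44 genes include 0.

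**Figure D3:**
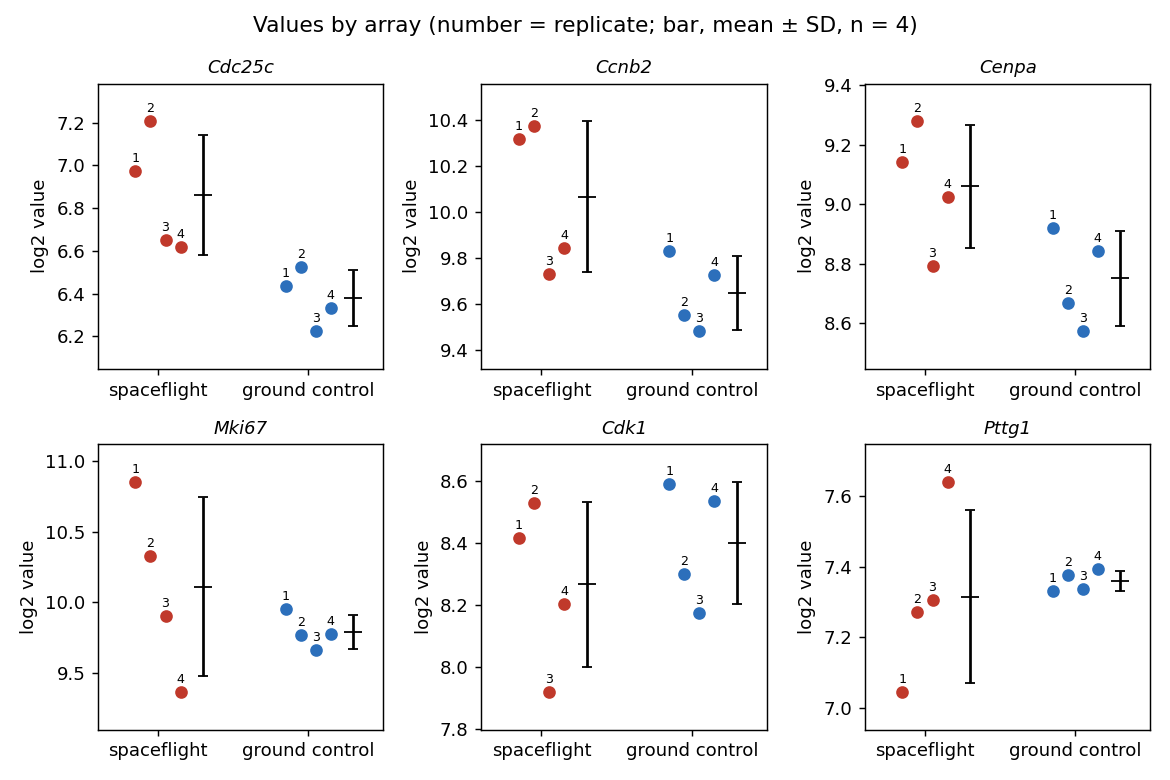
Log2 values of 6 genes in every mouse, numbered by replicate, with mean ± SD at the side (n = 4). Spaceflight mice 1 and 2 are the upper pair in Cdc25c, Ccnb2, Cenpa, Mki67 and Cdk1, and Pttg1 runs the other way, with spaceflight mouse 1 at 7.05 and mouse 4 at 7.64.

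For other genes given in full, leaving out spaceflight mice 1 and 3 moved the difference by over 1.5 times. It became 0.53 for Cdc25b, 0.47 for Nek2, 0.24 for Plk1, -0.034 for Cdk1, -0.076 for Foxm1, 0.12 for Birc5, 0.22 for Cdc20, 0.047 for Espl1 and 0.096 for Pttg1.

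The upper pair of mice recurred across the list, and it was noticed in these data before it was counted. Spaceflight mice 1 and 2 were the 2 highest of the 4 spaceflight mice for 43 of the 47 genes. The exceptions were Cdc25b, Nek2, Bub3 and Pttg1. This order held for 12.6% of all genes and for 1438 of the 8112 genes in the level range of the mitosis genes. Mice 1 and 2 were both above every ground-control mouse for 35 genes, against 8.13% of all genes and 590 of those 8112. Taken singly, spaceflight mouse 1 was above every ground-control mouse for 37 genes (32.2% of all genes) and mouse 2 for 41 (19.7%). Spaceflight mouse 3 was so for 1 gene, Cdc25c (26.9%), and mouse 4 for 8 (21.5%), and they were below every ground-control mouse for 24 (39.8%) and 19 (24.7%). In the level range of the mitosis genes, 71.2% of genes had mouse 3 below every control and 29.5% had mouse 4 there, so 24 of 47 is a smaller share for mouse 3. Mice 1 and 3 had the narrow value distributions and mice 1 and 2 the high mitosis genes. The part of the narrow distributions in the mitosis gene values was not tested. Genes of the same level range deviated by a median of -0.24, 0.0086, -0.26 and -0.011 in spaceflight mice 1 to 4, which is low in mice 1 and 3.

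The SD among spaceflight mice was larger than among ground-control mice for 46 of 47 genes. This held for 74.6% of all genes and for 6821 of the 8112 genes in the level range of the mitosis genes. It was at least 2 times as large for 33, against 35.2% of all genes and 3708 of those 8112. The median SD was 0.35 in spaceflight and 0.15 in ground control, against 0.21 and 0.14 over all genes. In the level range it was 0.23 and 0.12. Mki67 (0.63 and 0.12), Cenpf (0.54 and 0.12), Kif15 (0.51 and 0.17) and Cenpe (0.51 and 0.18) had the largest SDs in spaceflight. Smc4 had the smallest, at 0.18 in spaceflight and 0.12 in ground control.

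**Figure D4:**
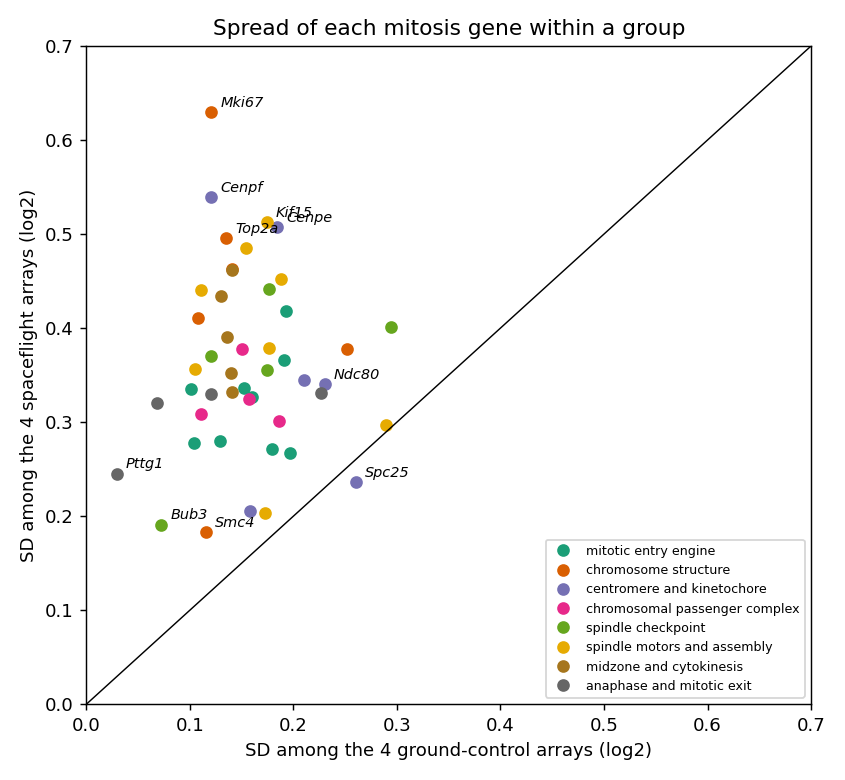
Each point is a mitosis gene, with its SD among the 4 ground-control arrays across and among the 4 spaceflight arrays upward (log2), coloured by role; the line marks equal SDs. All genes but Spc25 lie above the line, and Mki67 is farthest up at 0.63.

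Marker lists of thymus cell types were set beside these values. Summed levels of 10 marker lists (log2 of the summed linear values) had spaceflight mice 1 and 2 as the 2 highest spaceflight mice for 2 lists, and above every control for 0. The first of these, 8 genes of thymocytes without CD4 and CD8, lay at 10.26, 10.57, 10.10 and 10.18 in spaceflight mice 1 to 4, against 10.33, 10.38, 10.53 and 10.48 in ground-control mice 1 to 4. The other, 9 genes of thymocytes with both, lay at 14.20, 14.22, 14.05 and 14.13 in spaceflight mice 1 to 4, against 14.27, 14.33, 14.21 and 14.21 in ground-control mice 1 to 4. Such sums weigh the highest markers most. Gene by gene, mice 1 and 2 were the upper pair for 3 of these 8 and 4 of these 9 markers, against 12.6% of all genes. Fat cell markers (6 of 7 measured) ranged from 10.97 to 11.87 in spaceflight and 11.81 to 12.17 in ground control, with spaceflight mouse 1 lowest, and thymic epithelium markers (10 of 10) from 12.56 to 13.04 in spaceflight and 12.96 to 13.07 in ground control. Spaceflight mouse 1 was the lowest of all 8 mice for 5 of the 10 lists. Spaceflight mouse 3 was the lowest for thymocytes without CD4 and CD8, those with both, mature thymocytes and thymic epithelium. The part of these cells in the mitosis gene values was not tested.

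Of further mitosis genes outside the list 0 were called. The upper pair of the spaceflight mice was again mice 1 and 2 in 25 of 27 spindle and cytokinesis genes, 21 of 29 kinetochore genes and 13 of 14 condensin and cohesin genes. Among 27 measured spindle and cytokinesis genes, 26 had a higher mean, the median difference was 0.17, and spaceflight mice 1 and 2 were both above every control for 23. Troap, a spindle protein, differed by 0.27 and Fam83d, which recruits casein kinase to the spindle, by 0.26. In these 2 of the 27 genes all spaceflight mice were above all ground-control mice, as in 1.73% of all genes. Further centromere and kinetochore genes (29 measured, 17 higher) had a median of 0.030, with Cenpp at 0.41 and Zw10, a checkpoint protein of the kinetochore, at -0.21. In Zw10, 1 of the 29 genes, all spaceflight mice were below all ground-control mice, as in 4.28% of all genes. Further condensin and cohesin genes (14, 8 higher) had a median of 0.035, with Ncapd2 at 0.23 (0.075 without spaceflight mouse 1). Further entry kinases, phosphatases and regulators (20, 11 higher) had a median of 0.10, but Cdc25a, the phosphatase of S phase entry, was at -0.35 and Arpp19, an inhibitor of the phosphatase PP2A, at -0.38 (-0.20 without mice 1 and 3). Genes of the anaphase-promoting complex (17, 12 lower) had a median of -0.094, with the subunit Anapc11 at -0.37 (-0.16 without mice 1 and 3). The sign of 4 of these list medians turned when mice were left out. With single mice left out, the kinetochore median ran from -0.080 (without spaceflight mouse 2) to 0.10 (without spaceflight mouse 3), the condensin and cohesin median from -0.045 (without spaceflight mouse 2) to 0.12 (without spaceflight mouse 3), and the entry median from -0.088 (without spaceflight mouse 2) to 0.16 (without spaceflight mouse 3). For the anaphase-promoting complex it ran from -0.13 (without spaceflight mouse 2) to 0.018 (without spaceflight mouse 3) and was 0.049 without mice 1 and 3, and for spindle and cytokinesis genes from 0.071 (without spaceflight mouse 2) to 0.28 (without spaceflight mouse 4), with no change of sign.

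Most genes of the regulators that act on these promoters had lower means, as did most genes of the same level range, and 0 were called. Of 15 MuvB, B-Myb, Rbl, E2F, DP and NF-Y genes 13 (86.7%) had a lower mean. This held for 53.5% of all genes and 77.9% of those in the level range of the mitosis genes. The median of the 15 genes was -0.18, against -0.13 in that level range. Tfdp1, the E2F partner DP1, had log2 values of 8.69, 8.85, 8.60 and 8.45 in spaceflight mice 1 to 4 and of 9.09, 8.97, 9.29 and 9.22 in ground-control mice 1 to 4. Nfya, the DNA-binding subunit of NF-Y, had 7.42, 7.95, 7.53 and 7.63 in spaceflight mice 1 to 4, against 8.19, 7.98, 8.20 and 8.11 in ground-control mice 1 to 4. In both genes every spaceflight value was below every ground-control value, and the differences were -0.50 and -0.49 (limma adjusted p = 0.301 and 0.354). Such a separation held for 3 of the 15 genes, 4.28% of all genes and 584 of the 8112 genes in that level range. Tfdp2 (DP2) was at 0.50 in the other direction (limma adjusted p = 0.436). CDK inhibitors (6 of 7 measured) had a median of 0.020, with Cdkn2b (p15) at -0.34, and from -0.032 (without spaceflight mouse 4) to 0.067 (without spaceflight mouse 3) with single mice left out.

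Genes of S phase, which copy the DNA before mitosis, stood lower than the mitosis genes, relative to the ground-control mean, in every spaceflight mouse. All 20 S phase genes had a lower mean, against 53.5% of all genes and 77.9% of those in the level range of the mitosis genes, with a median difference of -0.29 and 8 at an unadjusted p under 0.05 and lower, against 7%, but 0 were called. Ccne2, a cyclin of S phase entry, was at -0.68 ± 0.18 (limma adjusted p = 0.367), and Chek1, a kinase of the replication checkpoint, at -0.58 ± 0.16 (limma adjusted p = 0.369). The helicase subunits Mcm2 and Mcm3 were at -0.41 and -0.52. The count of 8 was 4 after centring on 75th percentiles and 4 with repeated quantile normalization. It ran from 3 (without ground-control mouse 4) to 11 (without spaceflight mouse 2) with single mice left out, with 4 without spaceflight mouse 3 or 4 and 5 without ground-control mouse 1 or 3. After centring on 75th percentiles 18 of the 20 means were lower, and without spaceflight mouse 3 it was 17. In 19 of the 20 genes spaceflight mice 1 and 2 were the upper pair of the spaceflight mice, so this order was not particular to mitosis genes, but both were above every control for 1. The S phase median relative to the ground-control mean was -0.093, -0.025, -0.60 and -0.47 in spaceflight mice 1 to 4, against 0.067, -0.16, -0.057 and 0.18 in ground-control mice 1 to 4. The mitosis median minus the S phase median of the same mouse was 0.49, 0.51, 0.42 and 0.35 in spaceflight mice 1 to 4, against 0.086, 0.10, -0.10 and -0.14 in ground-control mice 1 to 4. The groups did not overlap in this contrast of lists, which was chosen after the values were seen and has no test. The gap between the 2 median differences was 0.43, was 0.45 without spaceflight mice 1 and 3, 0.47 with repeated quantile normalization, and ran from 0.40 to 0.50 when single arrays were left out.

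**Figure D5:**
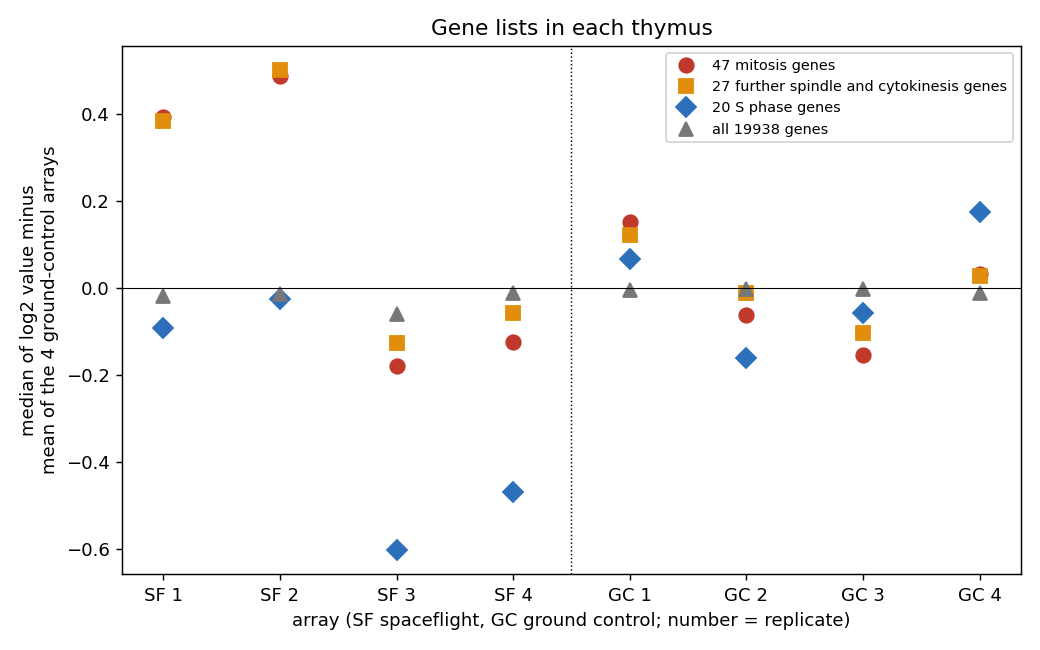
Points give, for each array, the median over a gene list of the log2 value minus the mean of the 4 ground-control arrays. In every spaceflight mouse the mitosis genes stand above the S phase genes, by 0.35 to 0.51, and in ground-control mice the gap runs from -0.14 to 0.10.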

How the data were processed

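The deposited values are log2 expression values, 1 array per mouse, and the submitters' processing notes name RMA and limma. Versions, roles, genome build and filters are not given in the sources used here. Of 35557 probe sets, the lowest unbroken run of identifiers (6614, without a gene in the annotation) was left out as likely controls, a choice made after the table was seen, and 28943 were tested. GEO's platform annotation gave 21789 of them a single gene, 1621 several and 5533 none. Symbols were updated through Entrez identifiers with RefSeq (GRCm38.p6). The main test was a two-sided moderated test from limma 3.58.1 (R 4.3.3), fitted to all 8 arrays with group as the single term and adjusted by Benjamini-Hochberg over every tested probe set. Every adjusted p is from this fit. The p-values set each difference against the spread within the groups of these 8 arrays, moderated across the tested probe sets.

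The members, the lists and the alternatives were chosen with earlier results of these data known. Every member is named; values of all arrays are given for the 10 of smallest p, the smallest p of each role and common markers of dividing cells, and up to 4 genes of smallest p are named from each further list. On simulated data for this comparison, 18% of 50 genes given a log2 change of 0.5 were called. Of 50 genes given a change of 1, 76% were called. Changes of 1.5 and 2 were given to 50 genes each in the same run. That run called 150 genes, against 10 in the measured data. Whether these shares hold for the measured data was not tested. The number of arrays limits the precision.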

Additional observations from a re-analysis of the deposited data

Results flagged for a closer look

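For the 47 genes and their median, the highest and the lowest mouse of each group of 4 were checked for a wide gap to the nearest other mouse, which made 96 groups of values. Chance alone marks about 1 group in 20, and here 1 of 96 was marked. Ect2 in ground control had mouse 3 at 8.85, and the next value was 9.11, a gap that was 0.839 of the group's whole range.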

How the results depend on the processing

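No mitosis gene was called under any alternative run, and none was at an unadjusted p under 0.05 and lower. The median difference over the 47 genes moved by less than the SD between arrays (0.26) throughout, but that SD is larger than the median of 0.14 itself. The median was 0.22 with centring on 75th percentiles, 0.23 with repeated quantile normalization and 0.19 without spaceflight mice 1 and 3. When single arrays were left out it ran from 0.029 (without spaceflight mouse 2) to 0.25 (without mouse 4). Without spaceflight mouse 1 it was 0.062. Genes at an unadjusted p under 0.05 and higher numbered 3 as deposited, 7 with centring, 9 with repeated quantile normalization, 8 without spaceflight mice 1 and 3, and 1 to 11 when single arrays were left out, lowest without spaceflight mouse 1 or 2 or ground-control mouse 2 or 3 and highest without spaceflight mouse 3. Genes with a lower mean numbered 10 as deposited, 3 with centring, 3 with repeated quantile normalization, and 4 to 20 when single arrays were left out, with 20 without spaceflight mouse 2. Over all genes limma called 10 as deposited, 3 (1 higher, 2 lower) with centring, 6 without spaceflight mice 1 and 3, 5 with all probe sets tested, and 2 to 9 when single arrays were left out. With the replicate block it called 0, with 1700 at an unadjusted p under 0.05. The labels share replicate numbers. Same-numbered mice correlated at 0.25, -0.40, -0.29 and 0.10 in their deviations from the group means, and differently numbered mice at -0.54 to 0.48. These values show no pairing by number but cannot settle whether the mice were paired. In this balanced design the block leaves every difference as it was, so the mitosis median stayed at 0.14. The sign turned for Foxm1 (0.035 with centring, 0.033 with repeated quantile normalization, -0.19 to 0.077 with single arrays left out), Top2a (-0.073 without spaceflight mice 1 and 3, -0.060 to 0.31 with single arrays left out), Birc5 (-0.025 to 0.20), Cdc20 (-0.015 to 0.22) and Espl1 (-0.032 to 0.18), all uncalled, and for Cdc26 (0.0029 without spaceflight mice 1 and 3). Pttg1 also turned, to 0.096 without spaceflight mice 1 and 3, and is outside the next count. Over 17 alternatives, 14 of 662 recomputed differences of named genes turned sign. So did 19 of 272 recomputed medians of roles and further lists, in 8 of 16 lists. Alternatives that change only the variance model, the probe sets tested or the replicate block cannot change a gene's difference. The share of turned signs is therefore no measure of stability. The list medians moved by less than the SD between arrays, a limit that a change of sign can also meet. The causes were not tested.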
